A study of Ovis aries with 5 samples.

Results

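The genes described are CLEC4E, CLEC6A, FCER1A, CD14 and CHI3L1, 5 genes of myeloid innate recognition measured in dendritic cells (DC) that leave the skin of sheep through the lymph. They were read from every non-control array probe that the files name for 1 of them. The 5 genes had 9 such probes of 15008 distinct probes on the array: 2 each for CLEC4E, CLEC6A, FCER1A and CD14, and 1 for CHI3L1. The CHI3L1 probe is listed in the files as LOC443279, a signal processing protein, and was named through that gene ID in RefSeq. All 9 probes passed the filter on dim probes, as did 13264 of the 15008.

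Lymph DC that carry CD1b, a protein presenting lipid antigens, had been sorted by their surface CD26, a protease, into CD1b+CD26+ and CD1b+CD26- cells. The CD26+ group had 2 arrays and the CD26- group had 2 arrays, 1 each from sheep 30066 and sheep 10081. A single array held total DC, which per the sample labels are enriched lymph DC of other sheep. On every array the sorted or total cells were labelled with Cy3 and set against a common Cy5 RNA, so that the total DC array carried this RNA in both dyes. The sample labels call the common RNA total enriched lymph DC, whereas the text on labelling speaks of RNA from cultured cells of a line. It is called total DC here, and no treatment, sex or age is given in the labels. Within a sheep both subsets share the animal, and the arrays of sheep 30066 lay in another row of the slide than those of sheep 10081, so effects of animal and of slide row cannot be told apart.

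The median Cy3 signal of the non-control spots, before background correction, was 204 to 307 units on the 5 arrays. Local backgrounds in Cy3 had medians of 36.5 to 39 units, and 81.1% to 89.5% of probes were well above background in Cy3. The log2 ratio of Cy3 over Cy5 had an SD over the tested probes of 0.29 for total DC and between 1.18 and 1.42 for the arrays of sorted cells. The Cy5 signals of the 5 arrays correlated across probes with r of at least 0.989. Of the 13 listed DC markers, 8 were on the array and all 8 were well above background on every array. With 5 arrays, and 2 per subset, precision is limited by their number throughout.

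CLEC4E (Mincle) and CLEC6A (Dectin-2) are C-type lectins of myeloid cells that bind glycolipids and mannose-rich sugars of microbes. Both lack a signalling motif of their own and pass their signal through the gamma chain of Fc receptors, encoded by FCER1G. FCER1A is the chain of the high-affinity IgE receptor that binds IgE, and it is known from mast cells and basophils and, in humans, also from DC. CD14 hands bacterial lipopolysaccharide to TLR4 and is a marker of monocytes and macrophages. CHI3L1 (YKL-40) is a secreted chitinase-like protein that binds chitin without cleaving it and is known from macrophages and inflamed tissue.

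The probe sequences for 4 of the genes are shown because they set how far the probes of a gene are separate measurements. Each probe has 60 bases. Capitals mark the stretch that both probes of a gene share exactly, which is 59 bases for CLEC4E and for CD14.
CLEC4E probe 1: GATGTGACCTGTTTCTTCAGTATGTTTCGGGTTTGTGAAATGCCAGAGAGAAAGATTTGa
CLEC4E probe 2: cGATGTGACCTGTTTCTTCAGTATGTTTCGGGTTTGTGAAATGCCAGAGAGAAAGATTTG
CLEC6A probe 1: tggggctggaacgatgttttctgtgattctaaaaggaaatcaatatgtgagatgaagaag
CLEC6A probe 2: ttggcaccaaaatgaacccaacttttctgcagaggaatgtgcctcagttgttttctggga
CD14 probe 1: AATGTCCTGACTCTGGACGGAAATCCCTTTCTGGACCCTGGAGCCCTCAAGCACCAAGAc
CD14 probe 2: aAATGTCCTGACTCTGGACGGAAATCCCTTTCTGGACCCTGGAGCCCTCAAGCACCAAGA
CHI3L1: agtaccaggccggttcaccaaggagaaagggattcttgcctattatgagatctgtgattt

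The paired probes of CLEC4E and of CD14 are offset by 1 base and therefore measure the same stretch of RNA in separate spots. The paired probes of CLEC6A are different sequences, as are those of FCER1A, and their distance in the transcript was not read. No other probe of the array shared a run of 20 bases with any of the 9 probes, in sense or antisense. Each probe had 1 spot per array. The share of G and C was 40% and 41.7% for CLEC4E, 38.3% and 45% for CLEC6A, 35% and 38.3% for FCER1A, 55% and 53.3% for CD14 and 45% for CHI3L1. In the RefSeq annotation of the assembly ARS-UI_Ramb_v3.0, CLEC6A and CLEC4E are neighbours on chromosome 3 with 1 protein-coding gene, CLEC4D, between them. FCER1A lies on chromosome 1, CD14 on chromosome 5 and CHI3L1 on chromosome 12. The files name no genome build, and no positions are given.

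The question of the sort is how CD26+ lymph DC differ from CD26- lymph DC. All 9 probes had lower values in CD26+ than in CD26- cells in both sheep, and both CD26+ arrays lay below both CD26- arrays for each of the 9. Over the array, 28.4% of probes were lower in both sheep and 16.6% had both CD26+ arrays below both CD26- arrays. CLEC4E, FCER1A and CLEC6A were at least 2-fold lower in each sheep on both of their probes. CD14 was more than 3-fold lower in sheep 10081 and close to equal in sheep 30066, and CHI3L1 was lower by less than 2-fold in each sheep. None of these differences passed the test, and they are given as sizes. In bulk RNA, fewer cells that carry a transcript and less of it per cell cannot be told apart.

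**Figure D1:**
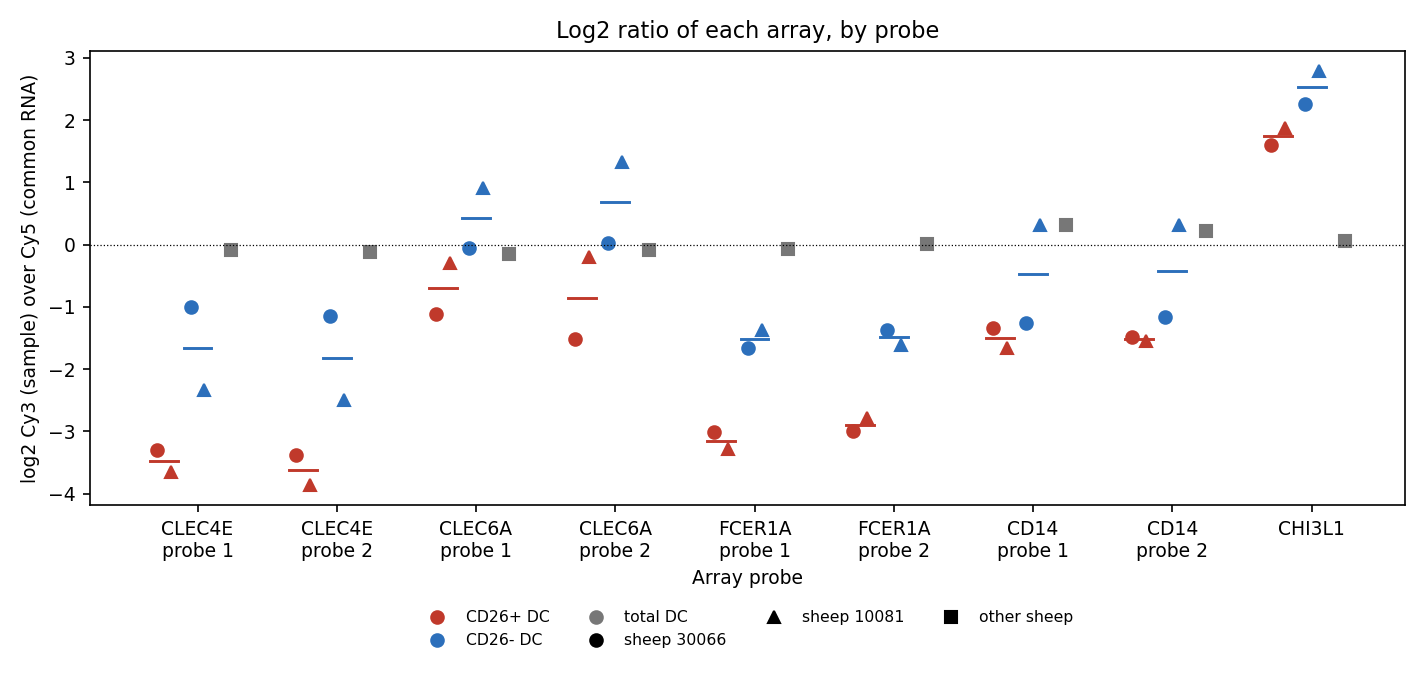
Log2 ratio of Cy3 (sample) over Cy5 (common RNA) for each of the 9 probes, with circles for sheep 30066, triangles for sheep 10081, squares for total DC and bars for the mean of each subset. For every probe both CD26+ points (red) lie below both CD26- points (blue), and CHI3L1 is the gene whose subset arrays all lie above total DC (1.59 to 2.78 against 0.06).

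The lectin CLEC4E had the lowest CD26+ ratios of the 5 genes. CLEC4E probe 1 had log2 ratios of -3.30 in sheep 30066 and -3.65 in sheep 10081 in CD26+ cells, against -0.99 and -2.33 in CD26- cells, and -0.08 in total DC. CLEC4E probe 2 had -3.38 and -3.85 in CD26+ cells, against -1.14 and -2.49 in CD26- cells, and -0.11 in total DC. The CD26+ arrays were thus the lowest in both sheep, the 2 CD26- arrays lay apart from each other and the total DC array was the highest. The difference of CD26+ minus CD26- was -1.81 (SE 0.57, 95% interval -3.35 to -0.27, 3.51-fold lower) for CLEC4E probe 1, with -2.31 in sheep 30066 and -1.31 in sheep 10081. It was -1.80 (SE 0.59) for CLEC4E probe 2. With limma the unadjusted p was 0.0305 and 0.0336 and the adjusted p over all tested probes 0.857 and 0.858. As spot signals before correction, CLEC4E probe 1 had 81.1 and 70.9 units in CD26+ cells, against 393 and 157 units in CD26- cells, and 695 units in total DC, over local backgrounds of 33 to 41 units. With 61.1 units in CD26+ cells of sheep 10081 CLEC4E probe 2 did not stand well above background, as it did on the other 4 arrays. The low end of the CLEC4E values therefore rests on dim spots.

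CLEC6A, the neighbouring lectin gene, did not follow the same order of arrays. CLEC6A probe 1 had log2 ratios of -1.11 in sheep 30066 and -0.30 in sheep 10081 in CD26+ cells, against -0.06 and 0.92 in CD26- cells, and -0.15 in total DC. CLEC6A probe 2 had -1.52 and -0.21 in CD26+ cells, against 0.02 and 1.33 in CD26- cells, and -0.08 in total DC. In both subsets sheep 10081 had the higher value, whereas for CLEC4E sheep 10081 had the lower value in both subsets. The difference between the subsets had nearly the same size in each sheep. It was -1.05 in sheep 30066 and -1.21 in sheep 10081 for CLEC6A probe 1, and -1.54 in each sheep for CLEC6A probe 2. The fitted differences were -1.13 (SE 0.54) and -1.54 (SE 0.71), with a limma adjusted p of 0.909 for both. The 95% intervals, -2.59 to 0.33 and -3.45 to 0.37, include 0. As for the other genes, these arrays were not paired by sheep in the fit. Its SEs and intervals therefore also hold the offset between the 2 sheep, not only the spread of the difference. Where sheep entered as a block, the limma adjusted p was 0.586 for CLEC6A probe 1 and 0.577 for CLEC6A probe 2. CLEC6A spots were well above background on all 5 arrays, with 155 and 436 units for CLEC6A probe 1 in CD26+ cells, against 423 and 865 units in CD26- cells, and 369 units in total DC.

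FCER1A varied little between the sheep, with an SD of 0.15 to 0.21 within a subset on its probes. FCER1A probe 1 had log2 ratios of -3.01 in sheep 30066 and -3.29 in sheep 10081 in CD26+ cells, against -1.66 and -1.37 in CD26- cells, and -0.07 in total DC. FCER1A probe 2 had -3.00 and -2.79 in CD26+ cells, against -1.36 and -1.61 in CD26- cells, and 0.00 in total DC. On both probes CD26+ was lowest, CD26- between and total DC, a single array, highest, an order that CLEC4E also had. Over the array, 16.6% of probes had both CD26+ arrays below both CD26- arrays, and the share with the order of all 3 groups was not counted. The difference of CD26+ minus CD26- was -1.64 (SE 0.36, 95% interval -2.60 to -0.67) for FCER1A probe 1 and -1.40 (SE 0.35, 95% interval -2.34 to -0.46) for FCER1A probe 2. With limma the unadjusted p was 0.0084 and 0.0135 and the adjusted p 0.777 for both. The 2 probes put the larger difference in different sheep. FCER1A probe 1 differed by -1.36 in sheep 30066 and by -1.92 in sheep 10081, and FCER1A probe 2 by -1.63 and -1.18. The CD26+ spots were dim, with 61.8 and 81.5 units for FCER1A probe 1 in CD26+ cells, against 216 and 269 units in CD26- cells, and 537 units in total DC. On each probe 1 of the 2 CD26+ arrays was not well above background, that of sheep 30066 for probe 1 and that of sheep 10081 for probe 2.

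**Figure D2:**
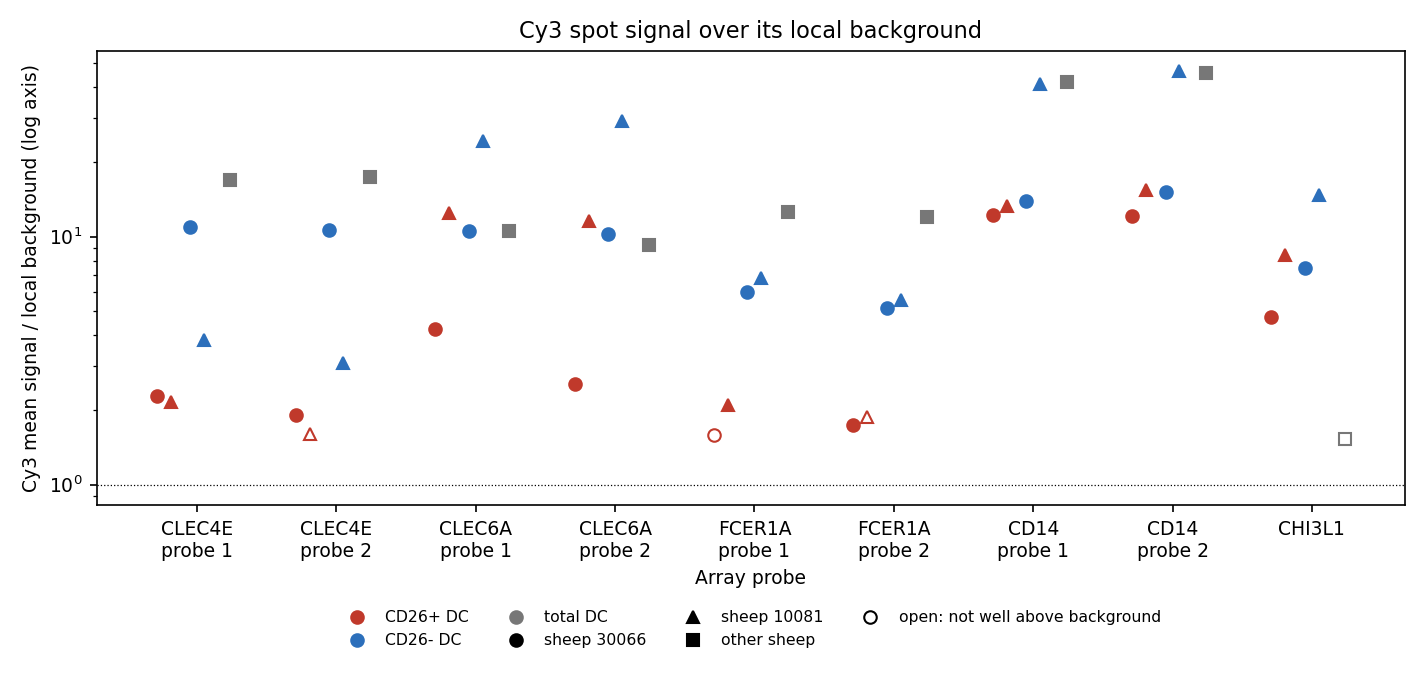
Cy3 spot signal divided by its local background on a log axis for each probe and array, with the symbols of the plot of ratios and open symbols for spots not well above background. The 4 open symbols are CLEC4E probe 2 and both FCER1A probes on 1 CD26+ array each and CHI3L1 on total DC, and the CLEC4E and FCER1A spots of CD26+ cells lie between 1.58 and 2.28 times their background.

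CD14 separated 1 array from the other 3 subset arrays. CD14 probe 1 had log2 ratios of -1.34 in sheep 30066 and -1.65 in sheep 10081 in CD26+ cells, against -1.25 and 0.32 in CD26- cells, and 0.32 in total DC. CD14 probe 2 had -1.48 and -1.55 in CD26+ cells, against -1.16 and 0.32 in CD26- cells, and 0.21 in total DC. CD26- cells of sheep 10081 stood at the level of total DC, and the other 3 subset arrays lay more than 2-fold below it. The difference of CD26+ minus CD26- was -0.09 in sheep 30066 and -1.98 in sheep 10081 for CD14 probe 1, and -0.32 and -1.87 for CD14 probe 2. The mean difference of -1.03 (SE 0.64) and -1.09 (SE 0.60) thus describes neither sheep, and the limma adjusted p was 0.957 and 0.945. CD14 was well above background on all 5 arrays. CD14 probe 1 had 501 and 479 units in CD26+ cells, against 541 and 1820 units in CD26- cells, and 1660 units in total DC.

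CHI3L1 was the only 1 of the 5 genes whose values in both subsets lay above total DC in both sheep. CHI3L1 had log2 ratios of 1.59 in sheep 30066 and 1.88 in sheep 10081 in CD26+ cells, against 2.26 and 2.78 in CD26- cells, and 0.06 in total DC. Between the subsets the difference was -0.67 in sheep 30066 and -0.90 in sheep 10081, with a mean of -0.79 (SE 0.39, 95% interval -1.83 to 0.26) and a limma adjusted p of 0.921. It became 0.56 when the background model was fitted on all spots. The CHI3L1 spot was dim in the common RNA, with Cy5 signals of 80.3 to 107 units over the 5 arrays, and in 2 of them, CD26- cells of sheep 30066 and total DC, it did not stand well above background. In Cy3 it had 218.5 and 305 units in CD26+ cells, against 306 and 559 units in CD26- cells, and 58 units in total DC, where it was not well above background.

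Over the whole array, 0 of 13264 tested probes (0%) had a limma adjusted p under 0.05 between CD26+ and CD26- cells, with a smallest adjusted p of 0.764. At an unadjusted p under 0.05 there were 746 probes, or 5.62%, among them the 4 probes of CLEC4E and FCER1A. Of the 12934 probes with values in both sheep, 28.4% were lower and 27.6% were higher in CD26+ cells in both. Of the 9 probes, 9 were lower in both sheep and 0 were higher. By sheep, 51.4% of probes were lower in sheep 30066 and 49.3% in sheep 10081, against 9 of 9 in each. For both CD26+ arrays below both CD26- arrays, the array's share was 16.6%, against 9 of 9 here. A difference of at least 2-fold lower in both sheep was found for 2.97% of probes and for 6 of the 9, those of CLEC4E, CLEC6A and FCER1A, and at least 2-fold higher were 2.42% of probes and 0 of the 9. In sheep 30066 alone 13.8% of probes and the same 6 of the 9 were at least 2-fold lower, and in sheep 10081 alone 9.28% of probes and 8 of the 9. The median difference was -1.40 over the 9 probes and -0.01 over all tested probes. The 9 probes are not 9 separate measurements, since 4 of them are near copies in pairs, and the genes were chosen with results of these arrays known.

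**Figure D3:**
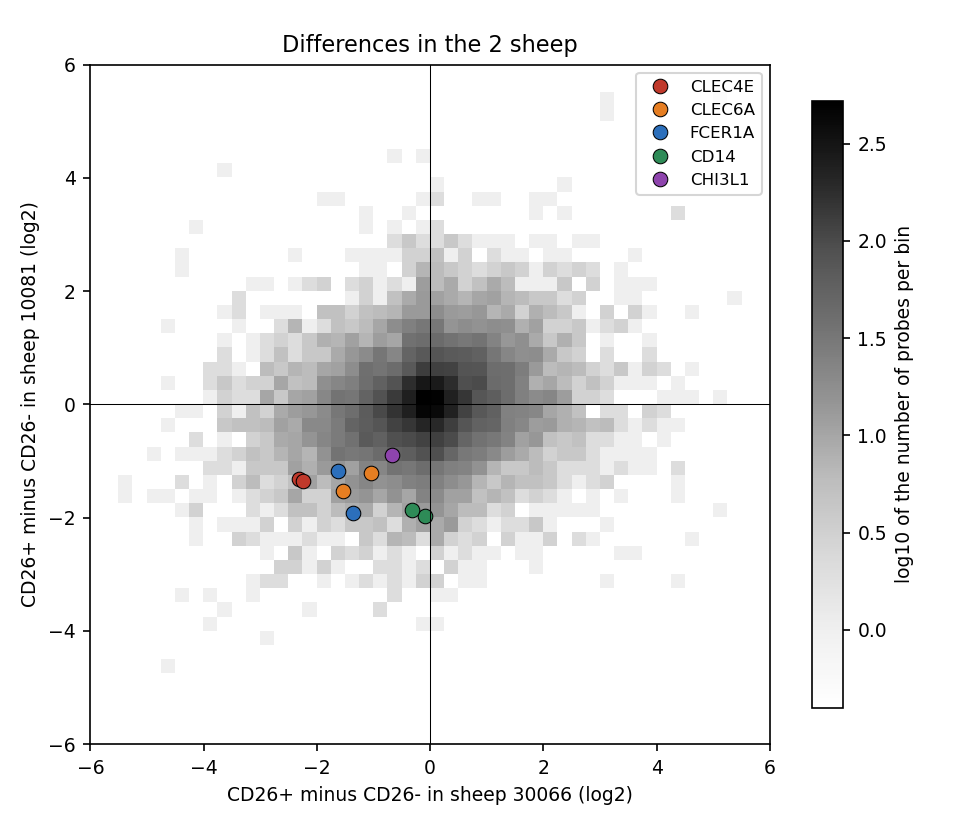
Difference of CD26+ minus CD26- in sheep 30066 (horizontal) and in sheep 10081 (vertical), both as log2, with the tested probes as grey bins (log10 of the number of probes; 1 probe lies outside the axes) and the 9 probes as coloured points. All 9 points lie in the lower left part, below 0 in both sheep, CD14 next to the vertical axis (-0.09 and -0.32 in sheep 30066) and CLEC4E farthest left (-2.31 and -2.24).

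Each subset was also set against total DC. Both comparisons use the same total DC array, and that RNA came from other animals, so subset and animal cannot be told apart in them. With a single total DC array, their SEs take the within-group spread from the subset arrays and hold no measured variation of total DC. CLEC4E and FCER1A had lower values than total DC in both subsets, CD14 in CD26+ cells, and CHI3L1 had higher values in both. CLEC6A lay below total DC in CD26+ cells and above it in CD26- cells of both sheep.

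In CD26+ cells CLEC4E differed from total DC by -3.40 (SE 0.70, 10.5-fold lower) and -3.51 (SE 0.72) on its 2 probes, with a limma adjusted p of 0.338 and 0.334. FCER1A differed by -3.08 (SE 0.44) and -2.89 (SE 0.43), with a limma adjusted p of 0.305 for both. This is the smallest adjusted p in this comparison, but other probes share it, among them those of TNF and CXCL8. By size of the difference the FCER1A probes ranked 303 and 384. Each of these FCER1A values rests on 1 of 2 CD26+ arrays well above background. CD14 differed by -1.82 (SE 0.78) and -1.73 (SE 0.74) and was close to equal in the 2 sheep, with -1.67 and -1.98 on probe 1. CLEC6A differed by -0.56 (SE 0.67) and -0.78 (SE 0.87), of which sheep 30066 had the larger part, -0.96 against -0.15 in sheep 10081 on probe 1. CHI3L1 was higher by 1.67 (SE 0.47, limma adjusted p 0.372), and no fold is given because its total DC spot was not well above background in either dye. With the log ratios scaled between arrays CLEC4E differed by -2.43 and -2.44 and FCER1A by -2.22 and -2.25. With all spots in the background model CLEC4E differed by -2.78 and -2.86 and FCER1A by -2.38 and -2.22.

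In CD26- cells CLEC4E differed from total DC by -1.58 (SE 0.70) and -1.71 (SE 0.72), with -0.92 in sheep 30066 and -2.25 in sheep 10081 on probe 1. FCER1A differed by -1.45 (SE 0.44, 2.72-fold lower) and -1.49 (SE 0.43), by a like amount in both sheep, with a limma adjusted p of 0.417 and 0.403. CD14 probe 1 differed by -1.58 in sheep 30066 and by 2e-04 in sheep 10081, and CD14 probe 2 by -1.38 and 0.10. CLEC6A was higher by 0.58 (SE 0.67) and 0.76 (SE 0.87), mainly in sheep 10081 (1.06 against 0.09 in sheep 30066 on probe 1). CHI3L1 was higher by 2.46 (SE 0.47, limma adjusted p 0.352), but by 0.78 with all spots in the background model and by 1.75 with the log ratios scaled between arrays. With all spots in the background model FCER1A differed by -0.80 and -0.86, and CLEC4E probe 2 differed by -1.04 with scaled log ratios.

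**Figure D4:**
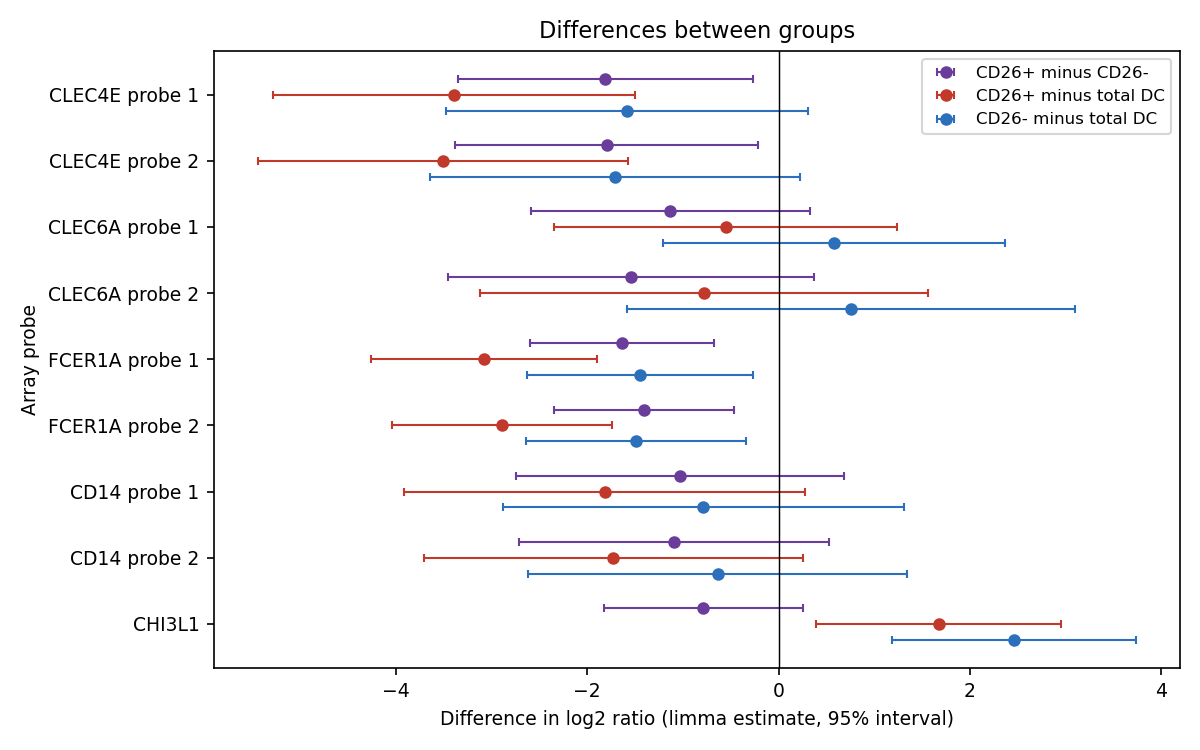
Differences in log2 ratio between the groups for each probe, as limma estimates with 95% intervals, for CD26+ minus CD26- (purple), CD26+ minus total DC (red) and CD26- minus total DC (blue). The intervals of CLEC4E and FCER1A lie below 0 for CD26+ cells in both of their comparisons, CD14 and CLEC6A intervals include 0 throughout, and CHI3L1 lies above 0 against total DC (1.67 and 2.46). Arrays were not paired by sheep for these estimates, so the CD26+ minus CD26- intervals also hold offsets between the sheep.

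For CD26+ cells against total DC, 0 of 13204 probes (0%) passed limma's adjusted threshold, with 1491 probes or 11.3% at an unadjusted p under 0.05, 5 of the 9 among them. In both sheep 38.8% of probes and 8 of the 9 were lower than total DC, and 34.3% of probes and 1 of the 9 were higher. A difference of at least 2-fold lower in both sheep was found for 8.79% of probes and 6 of the 9, and of at least 2-fold higher for 9.89% of probes and 1 of the 9. The median was -1.82 over the 9 probes and -0.02 over all. For CD26- cells, 0 of 13204 probes (0%) passed it, with 1401 probes or 10.6% at an unadjusted p under 0.05, 3 of the 9 among them. In both sheep 38.2% of probes and 4 of the 9 were lower and 33.8% of probes and 3 of the 9 were higher, so these shares lie near those of the array. At least 2-fold lower in both sheep were 7.51% of probes and 3 of the 9, and at least 2-fold higher 10.1% of probes and 1 of the 9. The median was -0.79 over the 9 probes and -0.03 over all. Set against the Cy5 signal of their own arrays, without the total DC array, 8.79% of probes and 5 of the 9 passed limma's adjusted threshold in CD26+ cells, and 8.04% of probes and 3 of the 9 in CD26- cells.

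The agreement of paired probes and the Cy5 signals show how far a single spot can be read. The log2 ratios of the paired probes differed on an array by 0.03 to 0.21 for CLEC4E and by 0.01 to 0.14 for CD14, whose probes share their sequence. They differed by 0.06 to 0.42 for CLEC6A and by 0.02 to 0.50 for FCER1A, whose probes differ in sequence. The log2 Cy5 signal of the same common RNA had an SD over the 5 arrays of 0.08 to 0.23 for the 9 probes, against a median of 0.16 over the tested probes. These are spreads of spots and probes on the same RNA and hold no variation between animals or sorts.

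The partners of these receptors were followed in lists of pathway genes. Of 26 genes of lectin and IgE receptor signalling 7 were on the array and 6 were tested. In CD26+ against CD26- cells 3 of the 6 were lower in both sheep and 1 was higher, none at least 2-fold, with a median difference of -0.21 and 0 called. FCER1G, the shared signalling chain of CLEC4E, CLEC6A and the IgE receptor, had log2 ratios of -0.61 in sheep 30066 and 0.17 in sheep 10081 in CD26+ cells, against 0.19 and 0.66 in CD26- cells, and 0.00 in total DC. FCER1G thus differed in the direction of the receptors by -0.65 (SE 0.45, limma adjusted p 0.968), less than any CLEC4E or FCER1A probe. With all spots in the background model FCER1G differed by -0.25. MS4A2, the beta chain of the IgE receptor, was well above background only on the CD26- array of sheep 10081 and was not tested. TLR4, the receptor that CD14 serves, differed by -0.80 in sheep 30066 and by 0.51 in sheep 10081, with a mean of -0.14 that turned to 0.31 with all spots in the background model, and TLR2, which also works with CD14, by 0.67 and 0.06. MYD88, the adaptor of both receptors, differed by -0.28 (SE 0.42), and NFKBIA, an inhibitor of NF-kappa-B that this pathway induces, by -0.52 (SE 0.70).

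Of 27 further lectins and chitinase-like proteins 3 were on the array and tested. CLEC7A (Dectin-1), a lectin that binds beta-glucan and signals through a motif of its own, had log2 ratios of 0.84 in sheep 30066 and 0.57 in sheep 10081 in CD26+ cells, against -0.13 and -0.17 in CD26- cells, and 0.14 in total DC. CLEC7A was therefore higher in CD26+ cells, by 0.85 (SE 0.35, limma adjusted p 0.884), while both lectins CLEC4E and CLEC6A had lower values there. CHIA, an active chitinase, differed by -0.11 (SE 0.35), and CHID1, a chitinase-domain protein, by -0.37 (SE 0.45). CHID1 was higher than total DC by 1.63 (SE 0.55) in CD26+ cells and by 2.00 (SE 0.55) in CD26- cells, with a limma adjusted p of 0.41 and 0.399. CHI3L1 was also higher than total DC. Of 11 other Fc receptors FCGRT, which carries IgG across cells, was on the array and differed by -0.53 (SE 0.53) between the subsets. FCGRT too was higher than total DC, by 1.95 and 2.47. Over the array, 9.89% (CD26+) and 10.1% (CD26-) of probes were at least 2-fold higher than total DC in both sheep.

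Of 15 cytokine and mediator genes that such receptors are known to induce, 10 were on the array and 8 were tested. In CD26+ against CD26- cells 4 were lower and 3 were higher in both sheep, with a median of -0.13 and 0 called. IL1B and CXCL8, an inflammatory cytokine and a neutrophil attractant, differed by -1.96 (SE 0.66) and -2.18 (SE 0.41). IL12B, the p40 chain of interleukin 12, IL1A and TNF differed the other way, by 3.90 (SE 0.63), 1.75 (SE 0.36) and 0.67 (SE 0.40). With all spots in the background model these were 3.80, 1.03 and 1.92, and IL1B and CXCL8 differed by -1.77 and -2.04.

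Markers of other cells that could be in the sort were read beside these genes. Of 20 monocyte and macrophage markers 5 were on the array and 4 were tested, which include CD14 and CHI3L1. Of the others LYZ, a secreted lysozyme, differed between the subsets by 0.43 in sheep 30066 and by -0.10 in sheep 10081, FABP5, a fatty acid binder, by -0.92 and -1.22, and ITGAM was well above background only on the CD26+ array of sheep 10081. The mean log2 ratio of LYZ and FABP5 was -1.42 and -2.72 on the CD26+ arrays, against -1.18 and -2.06 on the CD26- arrays, and -0.50 on the total DC array. This mean joins unlike genes. LYZ had 0.68 and -0.50 in CD26+ cells, against 0.25 and -0.40 in CD26- cells, and -0.07 in total DC. FABP5 had -3.53 and -4.93 in CD26+ cells, against -2.60 and -3.71 in CD26- cells, and -0.92 in total DC. CHI3L1 of the same list had its highest ratio, 2.78, on the CD26- array of sheep 10081. On that array CD14 stood at the level of total DC, and LYZ and FABP5 lay below total DC. Of 12 mast cell and basophil markers 5 were on the array and 3 were tested, among them FCER1A. KIT, the stem cell factor receptor of mast cells, was well above background on 2 of the 5 arrays and differed between the subsets by -0.15 (SE 0.36), and TPSB2, a mast cell tryptase, was well above on all 5 and differed by -0.30 (SE 0.44), or by 0.39 with all spots in the background model. CLDN1, the 1 Langerhans cell marker of 5 on the array, differed by -1.25 (SE 0.35), by -1.12 in sheep 30066 and by -1.37 in sheep 10081. Of 11 T cell markers 7 were on the array and tested, 3 lower and 3 higher in CD26+ cells in both sheep. Their mean log2 ratio was 0.22 in sheep 30066 and 1.23 in sheep 10081 in CD26+ cells, against 0.32 and 0.82 in CD26- cells, and 0.09 in total DC. CD3D, a chain of the T cell receptor complex, had 0.10 and 3.18 in CD26+ cells, against 1.41 and 4.11 in CD26- cells, and -0.11 in total DC, where it was not well above background. The mean of the T cell markers thus stood higher on both arrays of sheep 10081, but not every marker did. CD247, another chain of that complex, had -0.30 in sheep 30066 and -1.44 in sheep 10081 in CD26+ cells, against -1.92 and -2.53 in CD26- cells. Of 8 neutrophil markers 1 was on the array, LTF, which was well above background on 3 of the 5 arrays and differed by -0.09 (SE 0.34). Of 5 B cell markers 0 were on the array. The part of such cells in the values of the 5 genes was not tested. Of the 8 tested DC markers, 6 were higher and 2 were lower in CD26+ than in CD26- cells in both sheep, with a median difference of 0.95.

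The named genes most like each member were those with the smallest root mean square difference of the log2 ratio over the 5 arrays, among 682 genes with 1 probe each. Closest to CLEC4E was IL1B at 0.17, followed by CXCL8 at 0.40 and the arginase ARG2 at 0.54, where the median over genes was 2.63. Closest to FCER1A was the semaphorin receptor NRP1 at 0.33, a name assigned after its values were seen, then YWHAH at 0.45 and SOD2 at 0.60, with a median of 2.25. Closest to CD14 was TLR3, a receptor for double-stranded RNA, at 0.21, then BAMBI at 0.30 and AREG at 0.40, with a median of 1.23. Like CD14, TLR3 had 1 subset array near total DC, with -1.67 in sheep 30066 and -1.57 in sheep 10081 in CD26+ cells, against -1.30 and 0.23 in CD26- cells, and -0.19 in total DC. Closest to CLEC6A were UCP3 at 0.18, KIAA2013 at 0.22 and GLUT-1 at 0.27, with a median of 0.88. Closest to CHI3L1 were GAPDH at 0.27, CYP2J at 0.36 and DDOST at 0.40, with a median of 1.96. Among the 5 genes CLEC4E and FCER1A were nearest to each other at 0.63, followed by CLEC6A and CD14 at 0.83, whereas the neighbours CLEC4E and CLEC6A stood at 2.47. The 0.83 lies near the median over genes of 0.88 for CLEC6A, and the 2.47 near that of 2.63 for CLEC4E.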

How the data were processed

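Total RNA (200 ng) from lymph DC of sheep was amplified and hybridised to 5 two-colour Agilent arrays on 1 slide, per the labels' protocols, without a dye swap. Per the file headers, Feature Extraction 9.5.3.1 gave the deposited intensity of each spot and of its surroundings, on a linear scale and not normalised. Per the file headers, the same software made a log10 ratio of processed Cy5 over Cy3 signals, used here as an alternative. The deposited value table holds the log2 ratio of Cy3 over Cy5: it equalled the scanner's log ratio with turned sign to within 5e-10, and its column medians were -0.07 to 0.02. It is not centred otherwise as far as the sources used here say.

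Mean signals were corrected with normexp (offset 50) and normalised by loess within arrays (limma 3.58.1, R 4.3.3). Spots whose local background was over 5 times the array's median were left out of the model and the data. That choice, the members and all gene lists were made with earlier results of these data known. The 536 control spots had weight 0 and outlier spots were dropped. Tested were the probes whose Cy3 was well above background on 2 or more of 5 arrays (13264; 1744 were not). limma fitted 3 group means (2 residual and 2.36 prior degrees of freedom), with Benjamini-Hochberg adjustment over all tested probes and a threshold of 0.05. The fit was tested on simulated data. The 2 sheep are biological replicates, and both subsets of a sheep come from the same animal: their deviations from the group means correlated with r = 0.33. A gene of a list is represented by its brightest probe. The genes named were every probe of the 5 members, the lists' genes and, for each member, the 3 genes nearest over the arrays. Symbols name 1425 probes (826 genes), and 13583 probes have none here. Alternatives changed the background model, the normalisation, the scaling, the filter, the pairing by sheep and the arrays included.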

Additional observations from a re-analysis of the deposited data

Results flagged for a closer look

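The log2 Cy5 signal of CLEC6A probe 2, which is the common RNA on every array, was 8.62 on the CD26+ array of sheep 30066 and 9.08 to 9.17 on the other 4 arrays. The gap of this array to the nearest of the others was 0.828 of the whole range, over the limit of 0.71 for 5 samples. Chance alone passes this limit in about 1 of 20 groups, and 9 probes were examined. On that array CLEC6A probe 2 also had its lowest Cy3 signal of the 5 arrays, 86.5 units, and its lowest ratio, -1.52. CLEC6A probe 1 had its lowest Cy5 signal on the same array, a log2 of 0.40 below its highest, without passing the limit. The cause was not tested.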

How the results depend on the processing

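In each of the 3 comparisons between groups limma called 0 probes under every alternative fitted to it, the sheep block being fitted to CD26+ against CD26- only. Of 104 values of single probes per comparison, 103, 99 and 99 kept their direction and their side of the threshold (CD26+ against CD26-, then CD26+ and CD26- against total DC). The changes of filter and the sheep block leave a difference as it is, so there only the adjusted p could change. The same holds against total DC where an array of the other subset is left out. CHI3L1 between the subsets turned to 0.56 where all spots entered the background model. Without the CD26- array of sheep 30066, CD14 in CD26- cells against total DC turned to 2e-04 on probe 1 and 0.10 on probe 2; without the CD26- array of sheep 10081 they were -1.58 and -1.38. The other 8 values passed the threshold when the subset was set against Cy5 of its own arrays without the total DC array, which tests a ratio that 8.79% (CD26+) and 8.04% (CD26-) of all probes also passed. They were CLEC4E (-3.47 and -3.62, limma adjusted p 0.0339 and 0.0335), FCER1A (-3.15 and -2.89) and CHI3L1 (1.74) in CD26+ cells, and FCER1A (-1.51 and -1.49) and CHI3L1 (2.52) in CD26- cells.

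Leaving out each array in turn, CD26+ minus CD26- ranged from -2.48 to -1.14 for CLEC4E probe 1, from -1.78 to -1.49 for FCER1A probe 1, from -1.62 to -0.64 for CLEC6A probe 1, from -1.82 to -0.24 for CD14 probe 1 and from -1.04 to -0.53 for CHI3L1. The count of probes at least 2-fold lower in both sheep was 6 of 9 as reported, 4 with the background model on all spots (1.82% of all probes), 5 with the scanner's processed signals (2.9%) or with median centring (3.12%), and 2 with the log ratios scaled between arrays (1.38% of all probes). With spots well above background on all 5 arrays it was 3 of the 5 probes left (3.08% of all probes left). With the sheep number as a replicate block, differences were the same, 0 probes were called, the smallest adjusted p was 0.577 and 1126 probes had an unadjusted p under 0.05, against 746 without the block. The Cy3 signals of CLEC4E and FCER1A in CD26+ cells, and of CHI3L1 in total DC, are close to background, which limits how large these differences can be read.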
